A study of Homo sapiens with 6 samples.

Results

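RNA levels of 10 FOXO, antiproliferative BTG/TOB and related genes were compared between SaOS-2 cells with and without induced p21. The genes were chosen by symbol from the 23228 gene names of the table, and all 10 were found: the forkhead transcription factors FOXO1, FOXO3 and FOXO4, the BTG/TOB proteins BTG1, BTG3, TOB1 and TOB2, the cyclin CCNG2, the repressor HBP1 and the insulin receptor substrate IRS2. SaOS-2 is a human osteosarcoma cell line that lacks functional RB, and all libraries came from cells carrying a Tet-inducible p21 vector. The 3 p21 OFF libraries came from untreated cells. The 3 p21 ON libraries came from cells given 1 µg/ml doxycycline, the antibiotic that switches on the vector, for 24 h. No cells given doxycycline without the vector were analysed here, so p21 and the drug cannot be told apart. The labels do not say whether the replicates were separate cultures, so the p-values measure the spread between these samples, which may be technical.

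FOXO proteins are transcription factors that work downstream of insulin and growth factor signalling. AKT phosphorylates them, 14-3-3 proteins hold the phosphorylated forms in the cytoplasm, and nuclear FOXO activates genes of cell cycle arrest, stress resistance and apoptosis, CCNG2 and IRS2 among them. BTG and TOB proteins bind the CCR4-NOT deadenylase, which shortens the poly(A) tails of mRNAs, and HBP1 is an HMG-box factor that represses promoters of growth genes. p21, encoded by CDKN1A, inhibits cyclin-dependent kinases.

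The libraries held 12795490 to 21975045 reads on genes, and values are normalized read counts, in which each library's reads were divided by its size factor of 0.796 to 1.35. CDKN1A, whose reads may come from the vector and the cell's own gene together and which shares exonic sequence with the antisense gene DINOL, was 1266 ± 84.5 (SD, n = 3) in p21 OFF and 43691 ± 3138 in p21 ON cells, a log2 fold change of 5.11 (limma, adjusted p = 1.12e-19). Of 10 osteoblast markers, 8 had a mean of at least 10, COL1A2 had a mean of 2.88 and BGLAP was listed at 0; 0 were called higher and 2, IBSP and DLX5, lower, and the list's summed level was 74616 to 77737 in p21 OFF and 75610 to 78955 in p21 ON libraries. Of 8 markers of blood, endothelial and epithelial cells, 5 had a mean of at least 10, CD68 (853), EPCAM (322), KRT8 (159), KRT5 (24.9) and PECAM1 (13.0), while PTPRC, CDH5 and CDH1 were under 10, 0 were called, and the summed level was 1318 to 1413 in p21 OFF and 1309.7 to 1451 in p21 ON libraries. p21 OFF replicate 1 stood apart: it had the fewest reads, and its chi-square per gene against the other p21 OFF libraries was 8.48 and 9.28, where the other p21 OFF pair gave 3.06 and the p21 ON pairs 2.71 to 3.97. Its difference from the other p21 OFF libraries went with exonic length across 11401 genes (Spearman's rho -0.39), and the log2 fold change went with length too, with a rho of 0.28, and of 0.19 without that library. The part of this library in the results was not tested otherwise than by leaving it out, and values without it are given where they differ in call.

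CCNG2 fell in p21 ON cells, by 40.4%, and was the sole member to pass the test. The FOXO factors, BTG1, BTG3, TOB1, TOB2, HBP1 and IRS2 did not pass it, with adjusted p-values of 0.0589 to 0.962 by limma. Thus 0 of the 10 members were called higher and 1 was called lower at an adjusted p under 0.05, beside 10.5% of all 13255 tested genes called higher and 12.7% called lower, 23.2% in all. At an unadjusted p under 0.05, 2 members were higher and 3 lower, beside 17.8% of all tested genes higher and 19.1% lower, 36.8% in all. On the recovered reads edgeR and DESeq2 each called 0 higher and 1 lower. The background was 10.6% higher and 12.4% lower with edgeR, 23.0% in all, and 8.43% higher and 10.7% lower with DESeq2, 19.2% in all. Without p21 OFF replicate 1, limma called 0 members higher and 2 lower, CCNG2 and HBP1, beside 10.4% and 12.2% of all tested genes, 22.6% in all. The median log2 fold change of the members was -0.03 and that of all tested genes 0.0056. The groups did not overlap for 4 members, FOXO1 being higher in all 3 p21 ON libraries and CCNG2, BTG1 and HBP1 lower, while 40.4% of all tested genes had groups that did not overlap, 19.1% above and 21.3% below.

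**Figure D1:**
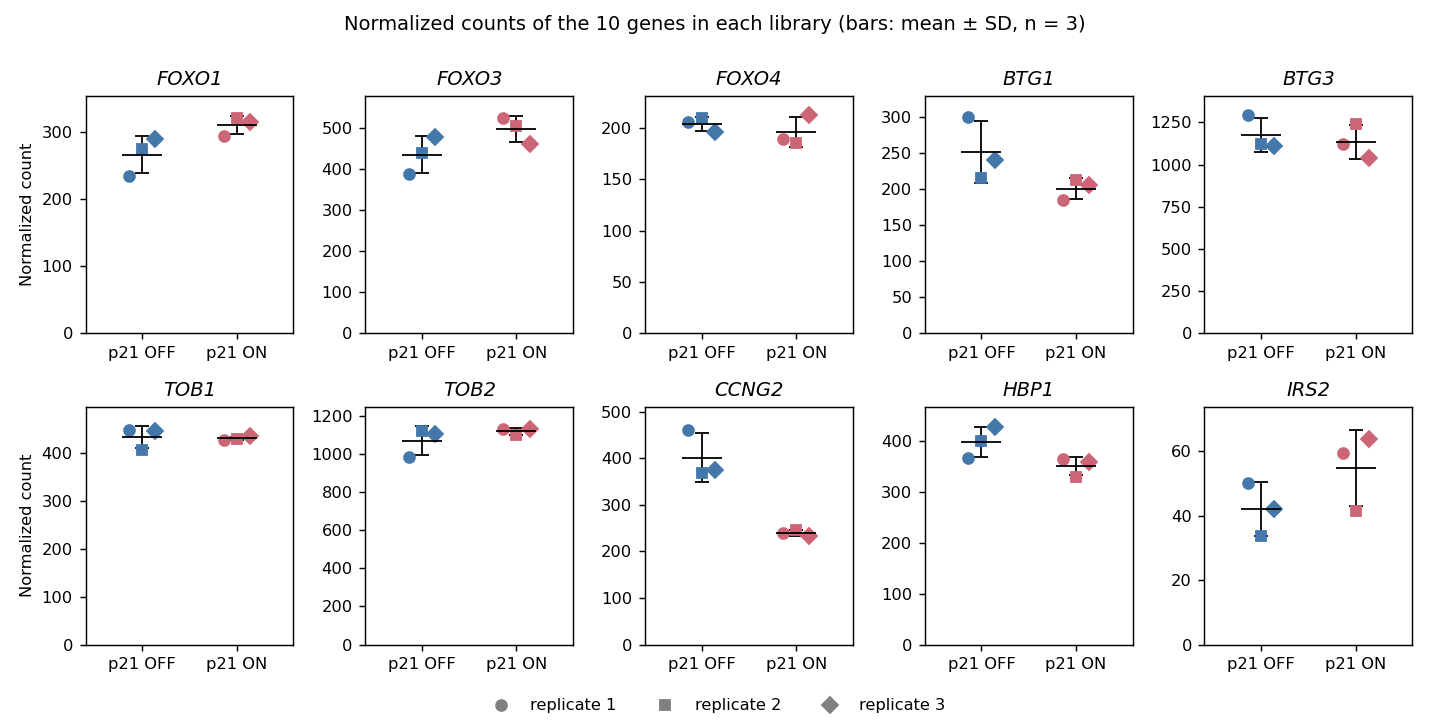
Normalized read counts of the 10 genes by condition, 1 panel a gene on an axis that starts at 0, with a symbol for each replicate and bars for the mean ± SD (n = 3). The 3 p21 ON values of CCNG2 (232 to 246) sit below all 3 p21 OFF values (368 to 461), while the groups of FOXO3, FOXO4, BTG3, TOB1, TOB2 and IRS2 overlap.

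The FOXO genes encode the transcription factors of the pathway. FOXO1 (chr13:41129804-41240778 on GRCh37, minus strand) had 235, 275 and 289 normalized counts in p21 OFF and 295, 320.5 and 315 in p21 ON libraries. All p21 ON libraries were above all p21 OFF libraries, the gap between the nearest libraries being small. The means were 266 ± 28.1 and 309.8 ± 13.6 (SD, n = 3), the log2 fold change was 0.22 with a 95% interval of 0.02 to 0.42, and the adjusted p by limma was 0.0995. Without p21 OFF replicate 1 the log2 fold change of FOXO1 was 0.13. Scaling by library size alone, which ignores differences in RNA composition, gave 0.27 with a limma adjusted p of 0.0480.

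FOXO3 (chr6:108881038-109005977, plus strand) had 388, 437 and 477 normalized counts in p21 OFF and 524, 503 and 461 in p21 ON libraries. The groups overlapped, since p21 ON replicate 3 was below p21 OFF replicate 3. Its log2 fold change was 0.19 with a 95% interval of 0.01 to 0.38 (limma, adjusted p = 0.115). Without p21 OFF replicate 3 it was 0.26 and passed the test (adjusted p = 0.0473), and without p21 OFF replicate 1 it was 0.12. FOXO3B, a near-identical copy on another chromosome that could share reads with FOXO3, had means of 94.1 and 107 and a log2 fold change of 0.20 (limma, adjusted p = 0.313). The FOXO3 level is uncertain to the extent that the counting split reads between these copies.

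FOXO4 (chrX:70315701-70323382, plus strand) had 206, 209 and 196 normalized counts in p21 OFF and 189.8, 185 and 213 in p21 ON libraries. The highest library of FOXO4 was a p21 ON library and so was the lowest. Its log2 fold change was -0.06 with a 95% interval of -0.27 to 0.15 (limma, adjusted p = 0.705). The within-library log2 ratio of FOXO1 to FOXO3 was -0.70 ± 0.03 in p21 OFF and -0.68 ± 0.14 in p21 ON cells (SD, n = 3), a difference of 0.03 (two-sided exact permutation test, p = 0.7). With 3 libraries against 3 this test cannot go below 0.1, and 3 such ratios were tested, with an adjusted p of 0.7 for this one.

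CCNG2 encodes cyclin G2, an unconventional cyclin that inhibits cell cycle progression and binds protein phosphatase 2A (PP2A). The gene lies at chr4:78078360-78354542 on GRCh37, plus strand, and no exon of another annotated gene overlaps its exons. The 250 bases upstream of its start are shown because this was the member that passed the test. They are from RefSeq on GRCh38.p14, chr4:77156957-77157206, plus strand, with the letters TTTAAA of the cell cycle homology region (CHR) motif in capitals:

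CCNG2: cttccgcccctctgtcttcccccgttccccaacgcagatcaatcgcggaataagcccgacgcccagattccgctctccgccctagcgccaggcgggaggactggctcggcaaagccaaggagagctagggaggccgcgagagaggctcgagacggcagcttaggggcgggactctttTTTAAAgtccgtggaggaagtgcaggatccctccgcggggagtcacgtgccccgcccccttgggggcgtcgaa

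The CHR motif was searched as TTTGAA or TTTAAA on both strands, and 21.9% of all 35116 RefSeq promoter windows of this length hold a match, as does that of FOXO3 among the other members. TTTAAA reads the same on both strands. The forkhead motif GTAAACA, the core bound by FOXO and other forkhead factors, has no match in the CCNG2 window. A match is a description of letters, not a site of binding.

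CCNG2 had 461, 368 and 375 normalized counts without p21 induction and 239.8, 246 and 232 with it. Every p21 ON library was far below every p21 OFF library, and the highest value was in p21 OFF replicate 1. The means were 401 ± 51.8 and 239 ± 7.15 (SD, n = 3), on 202 to 507 reads per library. The log2 fold change was -0.74 with an SE of 0.10 and a 95% interval of -0.94 to -0.53 (limma, adjusted p = 2.6e-05). Of all tested genes, 1.82% had a log2 fold change as low or lower. It was called lower under all 19 alternatives, at -0.79 to -0.63, the value nearest to 0 being that without p21 OFF replicate 1.

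Among 11397 genes with a mean of at least 50, the 3 whose log2 values followed CCNG2 most closely over the 6 libraries were TXNDC12, a thioredoxin domain protein of the endoplasmic reticulum, with Pearson's r of 0.998, TMEM160 with 0.996 and ORC3, a subunit of the origin recognition complex, with 0.996. These values describe the same libraries and rest largely on the difference between the groups. The log2 fold changes of TXNDC12, TMEM160 and ORC3 were -0.50, -0.51 and -0.53.

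IRS2, an adaptor that passes insulin receptor signals to PI3 kinase, was the member with the fewest reads, 34 to 67 per library (chr13:110405042-110438930, minus strand). It had 50.2, 33.6 and 42.1 normalized counts in p21 OFF and 59.4, 41.4 and 63.7 in p21 ON libraries. The groups overlapped, since p21 ON replicate 2 lay within the range of the p21 OFF libraries. The log2 fold change of 0.37 had an SE of 0.20 and an interval of -0.05 to 0.80 (limma, adjusted p = 0.193), the widest of the 10. It ranged from 0.22 without p21 OFF replicate 2 to 0.56 without p21 ON replicate 2, with 0 calls in the 6 fits that leave out 1 library.

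HBP1 (chr7:106809406-106842967, plus strand) had 367, 399 and 426 normalized counts in p21 OFF and 363, 329 and 358 in p21 ON libraries. All p21 ON values were below all p21 OFF values, with p21 ON replicate 1 and p21 OFF replicate 1 nearly level. HBP1 had a log2 fold change of -0.18 with an SE of 0.09 (limma, adjusted p = 0.136). Without p21 OFF replicate 1 it was -0.24 and passed the test (adjusted p = 0.0454). Exons of HBP1 overlap those of COG5 on the opposite strand, and the strand setting of the counting is not given in the sources used here.

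BTG1 (chr12:92534054-92539622, minus strand), an antiproliferative partner of the deadenylase, had 299, 215 and 239 normalized counts in p21 OFF and 184, 212 and 205 in p21 ON libraries. All p21 ON libraries were below all p21 OFF libraries, and p21 OFF replicate 1 was well above the rest. The means were 251 ± 43.2 and 200.4 ± 14.7 (SD, n = 3). The log2 fold change was -0.31 with a 95% interval of -0.56 to -0.07 (limma, adjusted p = 0.0589). It was -0.18 without p21 OFF replicate 1 (adjusted p = 0.240) and -0.42, past the threshold, without p21 OFF replicate 2 (adjusted p = 0.0230). With the trend on gene length taken out it was -0.30 and also past it (limma, adjusted p = 0.0480), so the call of BTG1 rests on these choices. Exons of BTG1 overlap those of BTG1-DT on the opposite strand and of LINC01619 on the same strand.

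BTG1 and HBP1 are the members whose upstream windows hold GTAAACA or its reverse complement TGTTTAC, which 2.98% of all windows hold. The BTG1 window also holds TTTCCCGC, 1 of 3 E2F motifs searched on both strands (TTTCGCGC, TTTGGCGC and TTTCCCGC), which together occur in 2.32% of all windows and, among the other members, in that of IRS2. The stretches with these letters are shown from 230 to 121 bases upstream of the start, from RefSeq on GRCh38.p14, in the direction of each gene and with the motifs in capitals, BTG1 from chr12:92145967-92146076, minus strand, and HBP1 from chr7:107168773-107168882, plus strand:

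BTG1: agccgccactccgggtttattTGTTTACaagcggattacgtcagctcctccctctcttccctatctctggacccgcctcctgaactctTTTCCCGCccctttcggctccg

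HBP1: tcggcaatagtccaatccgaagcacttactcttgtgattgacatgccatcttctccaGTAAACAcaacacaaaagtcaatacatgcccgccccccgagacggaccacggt

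BTG3 (chr21:18965971-18985263, minus strand), a relative of BTG1, had 1291, 1122.5 and 1112 normalized counts in p21 OFF and 1119, 1243 and 1041 in p21 ON libraries. The groups overlapped widely. BTG3 had a log2 fold change of -0.05 with an interval of -0.22 to 0.11 (limma, adjusted p = 0.662), and it was 0.02 without p21 OFF replicate 1.

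TOB1 and TOB2 encode the larger TOB proteins, which also bind poly(A)-binding protein. TOB1 (chr17:48939584-48945339, minus strand) had 448, 406 and 446 normalized counts in p21 OFF and 428, 430.1 and 435 in p21 ON libraries. The p21 ON libraries lay within the range of the p21 OFF libraries. The log2 fold change was -0.0066 with an interval of -0.17 to 0.16 (limma, adjusted p = 0.962). Exons of BTG3 and TOB1 overlap those of the antisense genes BTG3-AS1 and TOB1-AS1.

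TOB2 (chr22:41829498-41842805, minus strand) had 981, 1121 and 1104 normalized counts in p21 OFF and 1129, 1095 and 1129 in p21 ON libraries. All values but that of p21 OFF replicate 1 were close together. The log2 fold change was 0.07 with an interval of -0.08 to 0.21 (limma, adjusted p = 0.505). The log2 ratio of BTG1 to BTG3 was -2.23 ± 0.14 in p21 OFF and -2.49 ± 0.14 in p21 ON cells (exact permutation test, p = 0.2, adjusted p = 0.6), and that of TOB1 to TOB2 was -1.30 ± 0.17 and -1.37 ± 0.02 (exact permutation test, p = 0.6, adjusted p = 0.7).

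**Figure D2:**
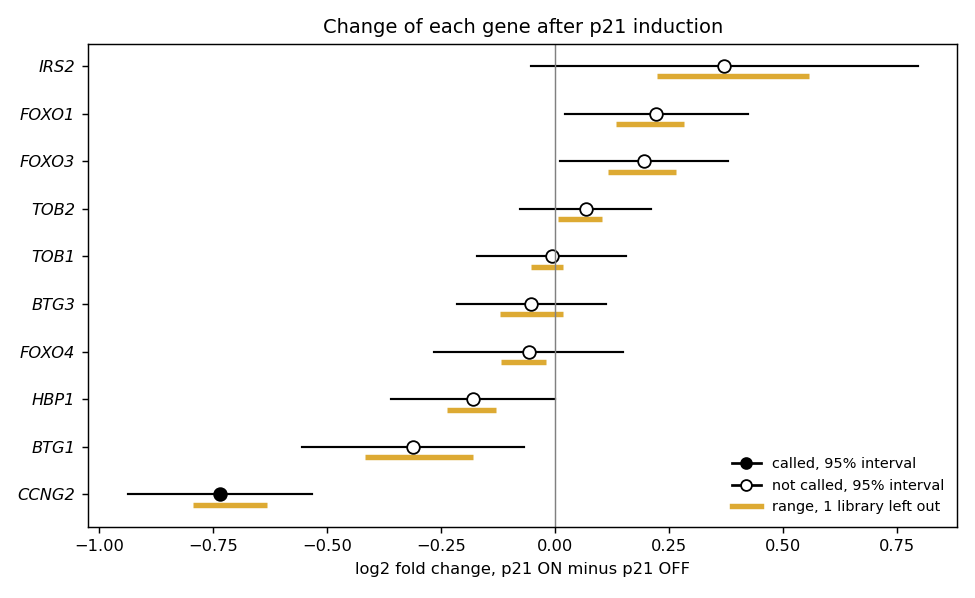
Log2 fold change (p21 ON over p21 OFF) of each gene with its 95% interval from limma (thin line) and the range over the fits that leave out 1 library (thick line), filled where the adjusted p was under 0.05. CCNG2, the filled point, lies at -0.74, and the interval of IRS2, -0.05 to 0.80, is the widest.

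Levels were compared between members as normalized counts per kilobase of the canonical transcript. In p21 OFF cells BTG3 was highest at 834 ± 71.2 per kilobase (SD, n = 3), followed by TOB2 at 246 ± 17.6, TOB1 at 194 ± 10.6, HBP1 at 140.2 ± 10.4 and CCNG2 at 73.3 ± 9.47. FOXO3, FOXO4, BTG1 and FOXO1 followed at 59.5 ± 6.09, 55.9 ± 1.92, 54.2 ± 9.34 and 46.1 ± 4.86, with libraries of each overlapping those of the next. IRS2 was lowest at 5.15 ± 1.02. In p21 ON cells the first 4 and the last kept their places, and CCNG2, at 43.7 ± 1.31, was 8th, level with BTG1 at 43.3 ± 3.17 and below FOXO3 at 68.0 ± 4.40, FOXO4 at 53.8 ± 4.07 and FOXO1 at 53.6 ± 2.35, the last pair overlapping. With the length of all annotated exons together in place of the canonical transcript, CCNG2 was 6th in p21 OFF and 9th in p21 ON cells.

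**Figure D3:**
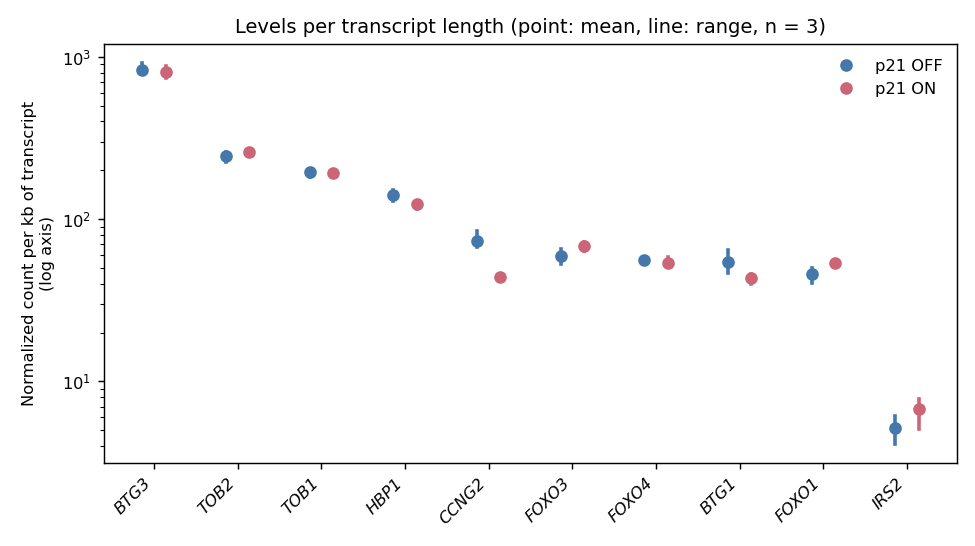
Normalized read counts per kilobase of canonical transcript for the 10 genes on a log axis, points for group means and lines for the range of the 3 libraries. BTG3 is at the top in both conditions (834 and 804 per kilobase), IRS2 at the bottom (5.15 and 6.72), and CCNG2 moves from 73.3 to 43.7.

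BTG2, CCNG1 and IRS1, the relatives of the members that could be tested, did not pass the test. BTG2, another antiproliferative BTG protein, had means of 98.9 ± 17.2 and 118 ± 0.92 normalized counts and a log2 fold change of 0.26 (limma, adjusted p = 0.165). CCNG1, the other cyclin G, had means of 1541 ± 111 and 1380.4 ± 69.9, with all p21 ON libraries below all p21 OFF libraries and a log2 fold change of -0.16 (limma, adjusted p = 0.103). IRS1, the other widely expressed insulin receptor substrate, had means of 6144 ± 732 and 5934 ± 244 and a log2 fold change of -0.04 (limma, adjusted p = 0.705), which without p21 OFF replicate 1 was -0.15 and past the threshold (adjusted p = 0.0375). BTG4 was under the minimum mean of 10, and IRS4 had 1 read in all libraries together. FOXO6 was not analysed here. RB1, which encodes RB, had means of 555 ± 66.8 and 654 ± 39.7 with a log2 fold change of 0.24 (limma, adjusted p = 0.0516). It stayed on that side of the threshold in 13 of 18 alternatives. Leaving out 1 library gave RB1 limma adjusted p-values of 0.0142 to 0.222, with 1 call.

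Of 25 tested genes upstream of FOXO among 26 listed, 4 were called higher and 3 lower, and the median log2 fold change was 0.03. These counts lie near the background of 10.5% higher and 12.7% lower over all tested genes. The called genes included PHLPP2 and PHLPP1, phosphatases that act on AKT, which rose by 0.33 and 0.28 on the log2 scale, and the insulin receptor INSR, which rose by 0.40. The 14-3-3 gene YWHAE fell from 9396 ± 782 to 7278 ± 283 normalized counts, a log2 fold change of -0.37 (limma, adjusted p = 0.000683). The 14-3-3 genes YWHAQ and YWHAZ fell by 0.21 and 0.17 on the log2 scale (limma, adjusted p = 0.0153 and 0.0380). YWHAQ was called in 4 and YWHAZ in 2 of the 6 fits that leave out 1 library. Without p21 ON replicate 1, and likewise without p21 ON replicate 3, 1 gene was called higher and 1 lower, YWHAE keeping its call in each. Calls over all 13255 tested genes fell as well, from 1393 higher and 1681 lower with all libraries. They were 695 and 887 without p21 ON replicate 1, and 739 and 1077 without p21 ON replicate 3.

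Of 27 tested FOXO target genes among 31 listed, 2 were called higher and 3 lower, with a median log2 fold change of 0.07. These counts too lie near the background of 10.5% higher and 12.7% lower over all tested genes, 23.2% in all. RBL2, which encodes the pocket protein p130, fell from 1728 ± 66.3 to 1379 ± 70.4 normalized counts, a log2 fold change of -0.33 (limma, adjusted p = 0.00148). Exons of RBL2 overlap those of AKTIP on the opposite strand. CDKN1B, encoding the cyclin-dependent kinase inhibitor p27, fell from 1329.7 ± 57.5 to 1115 ± 18.9, a log2 fold change of -0.25 (limma, adjusted p = 0.00814). The transcription factor gene KLF6 fell by 0.23 on the log2 scale, while INSR rose, as did BCL2L11, encoding the apoptosis activator BIM, with a log2 fold change of 0.23. BCL2L11 and KLF6 were near the threshold, with limma adjusted p-values of 0.0478 and 0.0394. Without p21 OFF replicate 1 BCL2L11 was 0.20 and not called (limma, adjusted p = 0.0817), while the stress-induced gene GADD45A, named here after its values were seen, was 0.20 and called (adjusted p = 0.0381), so that the count stayed at 2. Leaving out p21 OFF replicate 2 left 1 higher call, as did leaving out p21 ON replicate 2, and leaving out p21 ON replicate 1 or 3 left 0. Over all 13255 tested genes the higher calls were 1393 with all libraries and 1231 without p21 OFF replicate 2. Without p21 ON replicates 1, 2 and 3 they were 695, 1146 and 739.

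**Figure D4:**
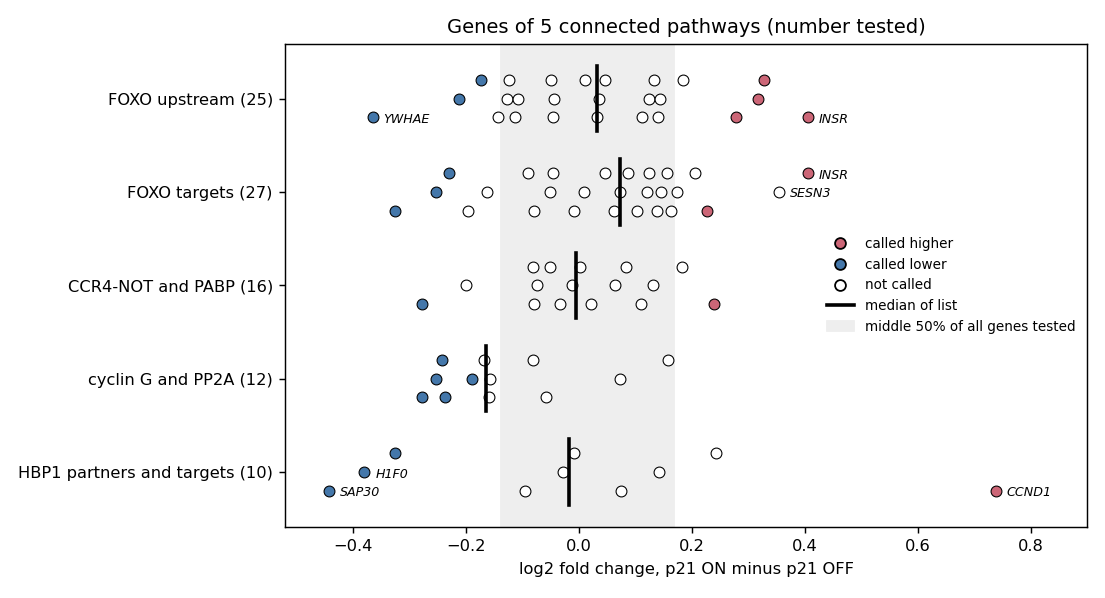
Log2 fold change (p21 ON over p21 OFF) of each tested gene in the 5 pathway lists, filled where limma's adjusted p was under 0.05, with a bar at each list's median and the middle 50% of all tested genes shaded. The FOXO upstream and target lists have filled points on both sides of 0, and the cyclin G and PP2A list has 5, all below 0.

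The 12 genes of the other cyclins G and I, GAK and PP2A subunits were all tested; 0 were called higher and 5 lower, with a median log2 fold change of -0.16, beside 10.5% higher and 12.7% lower over all tested genes. At an unadjusted p under 0.05 the counts were 0 and 8, beside 17.8% and 19.1% of all tested genes. edgeR called 0 higher and 5 lower, beside 10.6% and 12.4%, and DESeq2 0 higher and 4 lower, beside 8.43% and 10.7%. PPP2CB and PPP2CA, the catalytic subunits of PP2A, fell from 434 ± 11.5 to 358 ± 22.3 normalized counts and from 2201 ± 166 to 1867 ± 142, log2 fold changes of -0.28 and -0.24 (limma, adjusted p = 0.0192 and 0.0215). The scaffold subunit PPP2R1B fell from 1319.7 ± 57.5 to 1116 ± 88.4, a log2 fold change of -0.24 (limma, adjusted p = 0.0186), and PPP2R1A and the regulatory subunit PPP2R5A fell by 0.19 and 0.25 on the log2 scale. The count of lower calls was 7 without p21 OFF replicate 1, 2 without p21 OFF replicate 2, 3 without p21 OFF replicate 3, and 0, 3 and 1 without p21 ON replicates 1, 2 and 3. Over all 13255 tested genes the lower calls in these fits were, in the same order, 1617, 1381, 1660, 887, 1459 and 1077. With all libraries they were 1681.

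Of the 16 genes of the CCR4-NOT complex and other poly(A)-tail factors, all tested, 1 was called higher and 1 lower, beside 10.5% and 12.7% of all tested genes, with a median log2 fold change of -0.0054. CNOT10, a subunit of the complex, rose from 849.7 ± 38.3 to 1003 ± 27.7 normalized counts, a log2 fold change of 0.24 (limma, adjusted p = 0.0153). CNOT7, a catalytic deadenylase subunit that BTG and TOB proteins bind, fell from 620.1 ± 22.3 to 512 ± 34.8, a log2 fold change of -0.28 (limma, adjusted p = 0.0141). Leaving out p21 ON replicate 3 left 0 calls in either direction. Leaving out p21 ON replicate 1 left 0 lower calls, and without p21 OFF replicate 3 the count of higher calls was 2.

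Of 10 tested partners and targets of HBP1 among 12 listed, 1 was called higher and 3 lower, beside 10.5% and 12.7% of all tested genes, with a median log2 fold change of -0.02. CCND1, encoding cyclin D1 and a target that HBP1 represses, rose from 101 ± 10.3 to 169 ± 9.15 normalized counts, a log2 fold change of 0.74 (limma, adjusted p = 0.000246), and its exons overlap those of LTO1. H1F0, encoding the linker histone H1.0, which HBP1 activates, fell from 4949.9 ± 119 to 3805 ± 175, a log2 fold change of -0.38 (limma, adjusted p = 0.000153). SAP30, a subunit of the SIN3 corepressor, fell by 0.44 on the log2 scale, and RBL2, which this list shares with the FOXO targets, was the third lower call. The other 6 tested genes of the list were not called, MYC (log2 fold change -0.10) and DNMT1 (0.14) among them. HBP1 itself was not called with all libraries, and its part in these changes was not tested. Without p21 OFF replicate 2 the count of higher calls was 2, beside 1231 of all 13255 tested genes.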

How the data were processed

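The authors prepared stranded mRNA libraries, aligned single-end reads to hg19 (STAR), assigned them to genes (HTSeq) and scaled each library by its DESeq2 size factor. What was deposited is the resulting normalized counts, a signal of 0 or above. Versions and the strand setting are not given in the sources used here. Exons of further named genes overlap those of genes on the opposite strand, among them PPP2R1B (SIK2), PHLPP2 (MARVELD3), BCL2L11 (MIR4435-2HG), SAP30 (SAP30-DT) and CNOT10 (CNOT10-AS1). All values (100%) came out as whole reads, within 0.01 read, once divided by 1 step per library. limma 3.58.1 (R 4.3.3, trend) was run without covariates on log2(normalized count + 1), which understates changes of low genes, over the 13255 genes whose mean was 10 or more. Adjusted p-values are Benjamini-Hochberg, with a threshold of 0.05. Library ratios were compared by two-sided exact permutation tests. edgeR 4.0.16, DESeq2 1.42.0, other scalings, pseudocounts of 0.1 and 10, filters, a threshold of 0.01, the replicate block and each library left out were alternatives. The script was tested on simulated data.

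Genes named were the 10 members, their family members, CDKN1A, RB1, up to 3 called genes with the lowest adjusted p per direction in each pathway list, and the 3 genes most correlated with CCNG2. FOXO3B, GADD45A, PHLPP1, PPP2R1A, PPP2R5A, MYC and DNMT1 were named after their values were seen. Some genes that this rule names are not reported here. The members and lists were chosen with earlier results of these data known. Gene positions and lengths are from GENCODE 44 lifted to GRCh37, the build of hg19, which matched 19137 gene names. Upstream sequences are from RefSeq on GRCh38.p14.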

Additional observations from a re-analysis of the deposited data

How the results depend on the processing

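CCNG2 kept its direction and its call under all 19 alternatives. CDKN1A, YWHAE, RBL2, CDKN1B, CCND1, H1F0, SAP30, TXNDC12 and ORC3 kept theirs under every alternative run for them, 16 for H1F0 and 18 for each of the others. Of 129 alternative values of the members over all libraries, 121 kept direction and side of the threshold, 3 crossed it and 5 changed sign. Scaling by library size alone gave FOXO1 0.27 and TOB1 0.037 on the log2 scale, IRS1 7.8e-05, 1 member higher, 8 FOXO upstream genes higher, 2 CCR4-NOT genes higher, 2 cyclin G and PP2A genes lower and 3 HBP1 list genes higher. Of all 13255 tested genes it called 2034 higher and 1194 lower, against 1393 and 1681 as reported. That scaling moved the share of higher calls among all calls from 45.3% to 63.0% and the median of all genes to 0.05. TOB1 was 0.00085 by edgeR with DESeq2 size factors and 0.00029 by DESeq2. DESeq2, TMM scaling and no filter each called 1 FOXO target higher, no filter called 3 cyclin G and PP2A genes lower, and a minimum mean of 50, at which IRS2 was not tested, called 2 HBP1 list genes higher. Over all tested genes, DESeq2 called 1118 and TMM scaling 1289 of 13255 higher. No filter called 1258 of 18210 higher and 1521 lower, and a minimum mean of 50 called 1282 of 11398 higher. With the length trend taken out, an alternative chosen after seeing the data, BTG1 was -0.30, BTG3 0.050 and TOB1 0.084, and the calls were 2 members lower, 6 upstream genes lower, 5 targets higher, 1 cyclin G and PP2A gene higher and 2 HBP1 list genes higher, as with the GC trend (2). Of the 11401 genes in these 2 fits, 1273 were higher and 1525 lower without the length trend. Without the GC trend 1360 were higher and 1646 lower. At an adjusted p under 0.01 the upstream calls were 1 higher and 1 lower, and 0 targets were higher, 0 CCR4-NOT genes higher or lower, and 0 cyclin G and PP2A genes lower. The share of all genes past that stricter threshold is not given here. Other tests, pseudocounts and filters moved no other count by over 1.5 times; the cause was not tested for any of these changes.

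Leaving out 1 library gave log2 fold changes of 0.13 to 0.28 for FOXO1, -0.12 to -0.019 for FOXO4, 0.0066 to 0.10 for TOB2, 0.22 to 0.56 for IRS2, 0.12 to 0.26 for FOXO3, -0.42 to -0.18 for BTG1, -0.12 to 0.017 for BTG3, -0.053 to 0.018 for TOB1, -0.24 to -0.13 for HBP1 and -0.15 to 0.012 for IRS1. Counts ranged from 0 to 1 members higher and 1 to 2 lower, 1 to 5 upstream genes higher and 1 to 3 lower, 0 to 3 targets higher, 0 to 2 CCR4-NOT genes higher and 0 to 1 lower, 0 to 7 cyclin G and PP2A genes lower, and 1 to 2 HBP1 list genes higher. Over all 13255 tested genes these fits called 695 to 1486 higher and 887 to 1660 lower. Differences in log2 ratio ranged from -0.036 to 0.10 for FOXO1 to FOXO3 and from -0.16 to 0.011 for TOB1 to TOB2.

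The replicate numbers did not pair the libraries: same-numbered libraries had correlations of deviations of -0.057 to -0.025, and 0 of 6 correlated best with their own number. With the replicate number as a block, BTG1 (-0.31) passed the test, 2 members and 3 cyclin G and PP2A genes were lower. Over all 13255 tested genes that fit called 1407 higher and 1513 lower. IRS2 had the fewest reads, 34 to 67 per library, and the widest spread between replicates, with coefficients of variation of 19.8% and 21.5%; their parts in its interval were not tested.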
